A study of Mus musculus with 27 samples.

Results

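The levels of 10 genes of glucose uptake, glycolysis and lactate production were followed by RNA-Seq in PDGFRα-positive cardiac fibroblasts and in whole hearts of C57Bl/6 mice from birth to old age. The 10 genes, of 22855 counted in each table, were taken by symbol, and all 10 were found in both tables: the glucose transporters Slc2a1 and Slc2a4, the hexokinases Hk1 and Hk2, the phosphofructokinases Pfkm and Pfkp, the phosphoglycerate mutase Pgam2, the enolase Eno3, and the lactate dehydrogenase subunits Ldha and Ldhb. The genes were chosen by symbol as a pathway set, with the late rise of the Hk2 level in cardiac fibroblasts part of that choice, so the values of Hk2 in cardiac fibroblasts are given as a description and were left out of every test. The animals were newborn (postnatal day 1), young (4 weeks), adult (14 weeks) or old (1 or 1.5 years), with 3 hearts per age, 3 cardiac fibroblast libraries at each of the first 2 ages and 2 at each later age. Cardiac fibroblasts were sorted by flow cytometry for PDGFRα from the nonmyocytes of enzymatically digested hearts, and the labels name no treatment or transgene for any group. The labels do not say how many animals gave a library, so p-values measure the spread between these libraries.

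Glucose enters cells through facilitative transporters, is trapped by hexokinase as glucose 6-phosphate, is committed to glycolysis by phosphofructokinase, and leaves the pathway as pyruvate or lactate. At nearly every step vertebrates have several isoforms from separate genes. Slc2a1 (GLUT1) is the widely expressed basal transporter, whereas Slc2a4 (GLUT4) is the insulin-responsive transporter of striated muscle and fat. Hk1 is the broadly expressed hexokinase and Hk2 the regulated, muscle-type one. Pfkm, Pgam2 and Eno3 are the muscle isoforms of their steps, and Pfkp is an isoform of non-muscle tissues. Ldha encodes the subunit that favors lactate formation, and Ldhb the subunit that predominates in adult heart muscle. After birth the heart turns from glucose and lactate toward fatty acids as its main fuel.

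Libraries held 54615898 to 76758831 counts in cardiac fibroblasts and 46091271 to 67984404 in whole hearts. Pdgfra, the receptor used for the sort, was at 784 to 1370 CPM, counts scaled to the library total, in the sorted cells and 28.6 to 62.0 CPM in hearts. Levels are given as CPM, scaled within each tissue by the trimmed mean of M values (TMM) unless a sentence says otherwise. Markers of other cells were present in the sorted cells. The summed level of 14 cardiomyocyte markers was 872 to 970 CPM in cardiac fibroblasts at postnatal day 1, 96.8 to 271 CPM at 4 weeks and 25.9 to 195 CPM at the later ages, and at postnatal day 1 each marker was at 0.852% to 1.80% of its level in the heart. None of the 14 was under 1 CPM in every library of an age except at 1 year, when 3 were. The summed level of 9 endothelial markers was 550 to 843 CPM at postnatal day 1, 784 to 2855 CPM at 4 weeks, 1960 to 2335 CPM at 14 weeks and 607 to 882 CPM at 1 year, and the libraries of 1.5 years were at 379 and 1855 CPM. Over 10 macrophage markers it was 358 to 648 CPM at 4 weeks, 52.2 to 65.7 CPM at 14 weeks and 96.2 to 100.4 CPM at 1.5 years. The 9 smooth muscle and pericyte markers ran between 417 and 887 CPM. The 9 fibroblast markers ran between 58275 and 75107 CPM in newborn, 47700 and 56610 CPM in 4 week and 30010 and 31076 CPM in 14 week libraries. Later they ran between 39197 and 49818 CPM at 1 year and 22490 and 30426 CPM at 1.5 years. Immediate early genes and heat shock genes, which respond to cell handling among other stimuli, summed over 20 genes to 16422 to 22288 CPM at postnatal day 1. Their sum was 38911 to 45701 CPM at 4 weeks and 36945 to 40400 CPM at 14 weeks. Later it was 50011 to 52380 CPM at 1 year and 55881 to 58765 CPM at 1.5 years. Xist, transcribed in female cells, was at most 0.570 CPM in every library at 14 weeks and 1 year, and Ddx3y, a Y-linked gene, was at most 0.397 CPM in every library at 1.5 years, while every cardiac fibroblast library of the 2 youngest ages held both transcripts (Xist at least 137 CPM, Ddx3y at least 24.8 CPM). Sex and age cannot be told apart in comparisons between these 3 sets of ages.

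Promoters of 4 of the 5 genes in which a searched motif occurred are printed here as sequence context: Hk2 and Ldha, whose levels in cardiac fibroblasts varied after 14 weeks, and Pgam2 and Ldhb, which are muscle and heart isoforms. RefSeq on GRCm38.p6 gave promoter windows for 9 of the 10 genes. Each stretch is the 250 bases before an annotated start, read 5′ to 3′ on the gene's strand. The positions are chr6:82774455-82774704 (minus strand) for Hk2, chr7:46845554-46845803 (plus strand) for Ldha, chr11:5803797-5804046 (minus strand) for Pgam2 and chr6:142507958-142508207 (minus strand) for Ldhb. Capitals mark ACGTG on either strand in Hk2 and Ldha, and CTANNNNTAA or CTANNNNTAG on either strand in Pgam2 and Ldhb. ACGTG is the core that hypoxia-inducible factors bind and is also part of the E-box CACGTG, which was counted as a single site. The other motif is a loose form of the site of the muscle factor MEF2.
Hk2: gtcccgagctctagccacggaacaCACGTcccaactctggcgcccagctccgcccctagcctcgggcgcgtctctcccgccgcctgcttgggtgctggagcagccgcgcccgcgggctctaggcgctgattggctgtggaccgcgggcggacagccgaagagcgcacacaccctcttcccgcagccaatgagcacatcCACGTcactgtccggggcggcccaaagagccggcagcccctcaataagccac
Ldha: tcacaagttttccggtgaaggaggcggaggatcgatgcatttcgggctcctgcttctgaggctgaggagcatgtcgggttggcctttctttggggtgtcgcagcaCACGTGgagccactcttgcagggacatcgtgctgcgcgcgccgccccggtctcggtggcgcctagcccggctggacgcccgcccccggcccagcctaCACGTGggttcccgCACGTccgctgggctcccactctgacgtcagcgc
Pgam2: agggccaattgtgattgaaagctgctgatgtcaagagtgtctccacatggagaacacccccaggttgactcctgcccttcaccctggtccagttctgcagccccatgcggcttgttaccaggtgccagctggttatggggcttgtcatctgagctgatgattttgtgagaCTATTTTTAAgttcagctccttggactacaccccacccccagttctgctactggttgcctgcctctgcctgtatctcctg
Ldhb: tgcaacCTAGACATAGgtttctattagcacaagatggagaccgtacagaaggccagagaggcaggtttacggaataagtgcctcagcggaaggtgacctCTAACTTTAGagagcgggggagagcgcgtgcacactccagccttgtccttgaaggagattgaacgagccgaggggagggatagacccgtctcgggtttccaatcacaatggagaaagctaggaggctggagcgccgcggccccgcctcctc
ACGTG occurred at 2 sites in the Hk2 window, at 3 in the printed Ldha window and at 0 in the other Ldha window, and in 16.6% of 32851 mouse promoter windows of the same length. The MEF2-type letters occurred at 1 site in Pgam2 and 2 in Ldhb, and in 10.1% of all windows. Among the other genes with a window, Pfkm held 1 ACGTG site in each of 2 windows, and Slc2a1, Hk1, Pfkp and Eno3 held neither motif. A match describes the letters only.

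In cardiac fibroblasts Hk2 (chr6:82725025-82774454, minus strand of GRCm38) had its highest level at 1.5 years. At postnatal day 1 the 3 libraries were at 9.10, 31.9 and 26.6 CPM (22.6 ± 12, mean ± SD, n = 3). At 4 weeks they were at 63.8, 62.5 and 115 CPM (80.3 ± 29.7, n = 3), and at 14 weeks at 14.3 and 19.5 CPM (16.9 ± 3.68, n = 2). At 1 year they were at 66.7 and 81.6 CPM (74.1 ± 10.6, n = 2), and at 1.5 years at 307 and 315 CPM (311 ± 5.8, n = 2). The order of the ages was thus not a steady climb: 4 weeks and 1 year overlapped, postnatal day 1 and 14 weeks overlapped, and both libraries at 1.5 years stood above the other 10. The fitted log2 differences of Hk2, given without a test, were 1.83 from postnatal day 1 to 4 weeks, −2.25 from 4 to 14 weeks, 2.13 from 14 weeks to 1 year and 4.2 from 14 weeks to 1.5 years. The other hexokinase, Hk1 (chr10:62268855-62379908, minus strand of GRCm38), ran between 81.8 and 134 CPM in all 12 libraries. As a share of the CPM per kilobase of Hk1 and Hk2 together, Hk2 was, from the youngest to the oldest age, 14.5%, 30.9%, 9.29%, 31.2% and 63.7%. Over the 12 libraries and 8818 genes, the genes whose log2 CPM followed Hk2 most closely were Vasn (Pearson r = 0.975), Tnfrsf12a (0.954), Litaf (0.951), Klhl21 (0.947) and Adamts1 (0.945). These correlations are a description of libraries that share ages and processing, and Slc2a1, the closest of the 10 genes, ranked 242 (0.745).

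**Figure D1:**
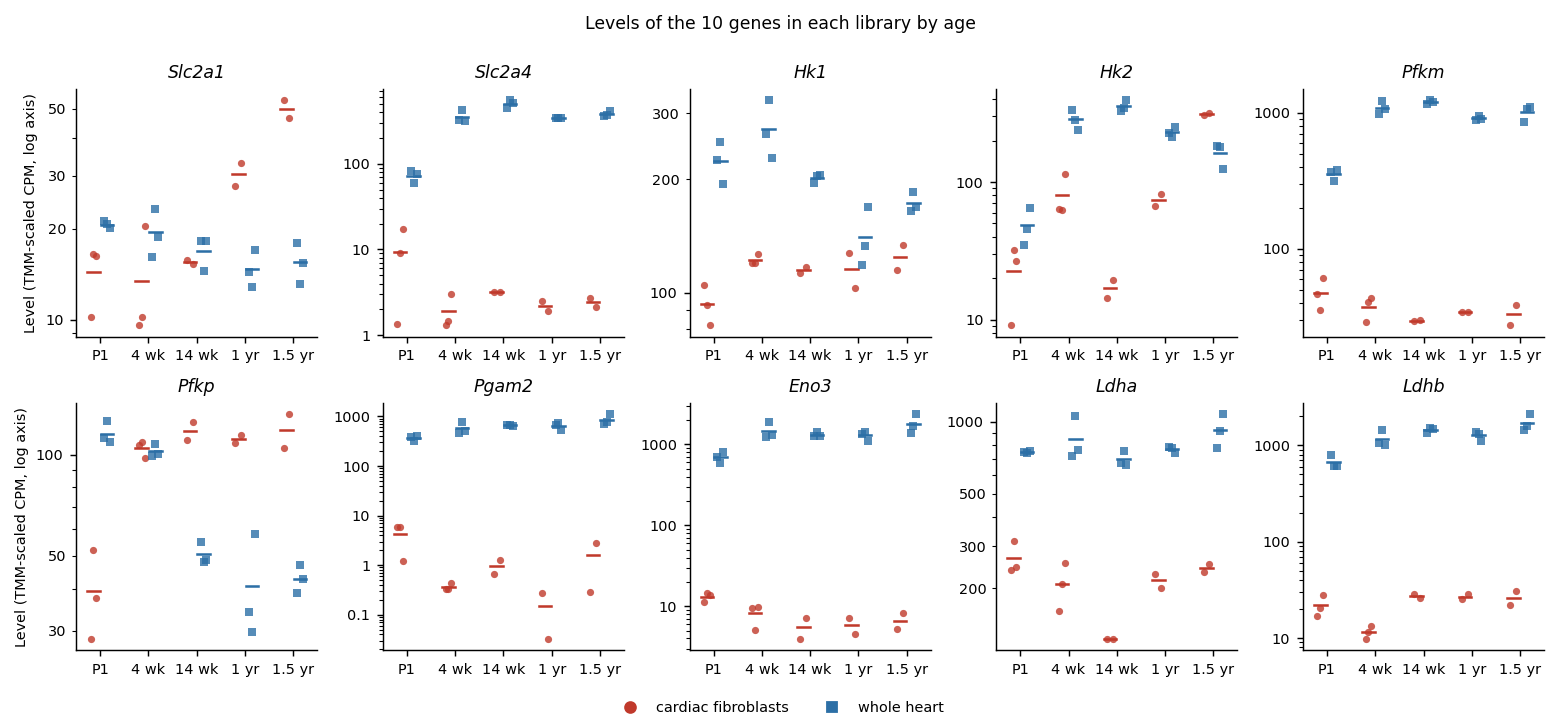
Level of each of the 10 genes in every library (circles, cardiac fibroblasts; squares, whole hearts) by age, in CPM scaled by TMM within its tissue on a log axis of its own per panel, with bars at group means. Hk2 in cardiac fibroblasts reaches 307 and 315 CPM at 1.5 years, above the 124 to 183 CPM of the hearts of that age on these scales.

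Slc2a1 (chr4:119108711-119137983, plus strand of GRCm38) was the uptake gene with a late difference in cardiac fibroblasts. Newborn libraries were at 10.2, 16.6 and 16.3 CPM, 4 week libraries at 9.57, 10.2 and 20.5 CPM and 14 week libraries at 15.7 and 15.3 CPM. At 1 year it was at 27.8 and 33.2 CPM, and at 1.5 years at 53.3 and 46.5 CPM. The libraries at 1 year and 1.5 years were above all younger ones and did not overlap each other. Slc2a1 rose from 14 weeks to 1.5 years by 1.69 ± 0.37 (log2 fold change ± SE, edgeR's quasi-likelihood test, Benjamini-Hochberg adjusted p = 0.0333) and between postnatal day 1 and 1.5 years by 1.80 ± 0.33 (adjusted p = 0.00199). The call against 14 weeks was lost when any one library at 14 weeks, 1 year or 1.5 years was left out, with adjusted p between 0.0503 and 0.254, while the difference stayed between 1.58 and 1.78. Slc2a4 (chr11:69942539-69948188, minus strand of GRCm38) in cardiac fibroblasts spread most at postnatal day 1, with 1.34, 9.13 and 17.5 CPM (9.34 ± 8.11, n = 3), and lay between 1.30 and 3.22 CPM in the 9 later libraries. Its difference from postnatal day 1 to 4 weeks, −2.29 ± 0.83, did not pass the test (edgeR, adjusted p = 0.0866). In these bulk samples, fewer cells of a type and less RNA per cell cannot be told apart.

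The lactate dehydrogenase subunits moved in opposite directions from 4 to 14 weeks in cardiac fibroblasts. Ldha (chr7:46841475-46855627, plus strand of GRCm38) was at 238, 316 and 246 CPM in newborn libraries, 161, 207 and 255 CPM in those of 4 weeks and 122 CPM in both of 14 weeks, then at 230 and 201 CPM after 1 year and 233 and 252 CPM after 1.5 years. The 14 week libraries were the lowest of all 12. Ldhb (chr6:142490249-142507957, minus strand of GRCm38) was at 17.1, 20.8 and 27.9 CPM at postnatal day 1, at 9.75, 11.7 and 13.5 CPM at 4 weeks, and between 22.2 and 30.5 CPM in the 6 later libraries, so that 4 weeks was the low point. Ldhb fell from postnatal day 1 to 4 weeks by 0.91 ± 0.24 on the log2 scale (edgeR, adjusted p = 0.0190) and rose to 14 weeks by 1.24 ± 0.26 (adjusted p = 0.0208). Ldha fell from 4 to 14 weeks by 0.76 ± 0.19 (edgeR, adjusted p = 0.0438) and rose from 14 weeks to 1.5 years by 0.99 ± 0.20 (adjusted p = 0.0250). The log2 ratio of Ldha to Ldhb counts, which needs no scaling between libraries, was 4.14 ± 0.0987 (SD, n = 3) at 4 weeks and 2.16 ± 0.0916 (n = 2) at 14 weeks, and it differed among the 5 ages (exact permutation test, p = 0.00140, adjusted over 11 ratios 0.00257). Single libraries decided several of these calls, while the differences kept their direction. Where such a fit leaves 1 library at an age, that library is assumed to vary like the other groups. Ldhb at 4 weeks was lost without postnatal day 1 replicate 3 or 4 week replicate 1 or 2 (adjusted p 0.0505 to 0.0702), with differences of −1.07 to −0.70 over all 12 fits that left out 1 library, and Ldhb at 14 weeks without 4 week replicate 1 or 2 or either 14 week library (0.0528 to 0.203), with 1.13 to 1.36. Ldha at 14 weeks was lost in 9 of 12 such fits, those without postnatal day 1 replicate 3, 4 week replicate 2 or 3, or any library of the 3 later ages (0.0503 to 0.301), with −0.92 to −0.59. Ldha at 1.5 years was lost without either library of 14 weeks or of 1.5 years (0.0770 to 0.214), with 0.93 to 1.04.

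Pfkp (chr13:6579768-6648777, minus strand of GRCm38) rose early in cardiac fibroblasts. It was at 28.3, 52.2 and 37.5 CPM at postnatal day 1 and 107, 109 and 97.9 CPM at 4 weeks, with no overlap, and between 104 and 132 CPM in the 6 later libraries. The rise to 4 weeks was 1.41 ± 0.19 (edgeR, adjusted p = 2.6e-04) and the rise to 1.5 years 1.59 ± 0.21 (adjusted p = 1.7e-04). The muscle isoform Pfkm (chr15:98092589-98132451, plus strand of GRCm38) ran between 27.4 and 61.0 CPM with no call between ages. Pfkp made up 28.0% of the CPM per kilobase of Pfkl, Pfkm and Pfkp at postnatal day 1, below the 47.3% of Pfkm, and 54.3% to 64.1% at the 4 later ages. The log2 ratio of Pfkp to Pfkm differed among ages (exact permutation test, p = 0.0313, adjusted 0.0479), as did that of Slc2a1 to Slc2a4 (exact permutation test, p = 0.0348, adjusted 0.0479). Both ratio calls were thin. The first was lost in 8 and the second in 10 of the 12 tests that left out 1 library, with adjusted p up to 0.0834 and 0.105. The first was kept only without 1.5 year replicate 5 or any library of postnatal day 1, and the second only without postnatal day 1 replicate 1 or 3.

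The muscle isoforms Pgam2 and Eno3 were low in cardiac fibroblasts. Pgam2 (chr11:5801640-5803733, minus strand of GRCm38) was at 5.93, 5.88 and 1.20 CPM at postnatal day 1, at 0.335, 0.336 and 0.433 CPM at 4 weeks and between 0.0323 and 2.85 CPM later. The libraries at 1.5 years, at 0.293 and 2.85 CPM, stood apart from each other, and the difference from postnatal day 1 to 4 weeks, −3.55 ± 1.33, did not pass (edgeR, adjusted p = 0.0973). Eno3 (chr11:70657202-70662513, plus strand of GRCm38) was at 11.3 to 14.4 CPM at postnatal day 1 and 3.93 to 9.93 CPM in the 9 later libraries, with no call between ages. At postnatal day 1 the level in cardiac fibroblasts was 0.887% of that in hearts for Pgam2, 1.42% for Eno3 and 9.58% for Slc2a4 by library size, beside a median of 1.07% for the cardiomyocyte markers. At 4 weeks these shares were 0.0633% for Pgam2, 0.555% for Eno3 and 0.546% for Slc2a4, beside 0.196% for the markers. What part the RNA of cardiomyocytes had in these 3 genes was not tested.

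Counted over the 9 genes tested in cardiac fibroblasts, 2 passed the adjusted p from postnatal day 1 to 4 weeks (1 higher, 1 lower), where 15.5% of all genes tested passed. The median log2 difference of the 9 or 10 genes is given beside that of all genes in what follows, as a description. It was −0.36 beside 0.00 for that step. From 4 to 14 weeks 2 of 9 passed (background 3.87%, median 0.17 beside 0). From 14 weeks to 1 year 0 of 9 passed with edgeR (background 1.78%, median 0.01 beside −0.01). With no share of all genes given beside them, 2 had an unadjusted p under 0.05, and 1 passed with DESeq2. The nearest was Ldha, at 0.82 ± 0.20 (edgeR, adjusted p = 0.0697). Between 14 weeks and 1.5 years 2 of 9 passed (background 2.72%), both higher (background 1.91% higher), with a median of 0.15 beside 0.00. Between postnatal day 1 and 1.5 years 2 of 9 passed (background 16.3%), both higher (background 9.86% higher), with a median of −0.14 beside 0. The comparisons with 14 weeks share the 2 libraries of that age, and those with postnatal day 1 the 3 libraries of that age. Across all 5 ages 4 of 9 passed (background 19.9%): Slc2a1, Pfkp, Ldha and Ldhb. Of these, Ldha was lost without either 14 week library (adjusted p 0.0796 and 0.0799) and Ldhb without 4 week replicate 1 or 2 (0.0548 and 0.0655). In the step from 14 weeks to 1.5 years, 8 of the 20 immediate early and heat shock genes rose and 1 of 13 hypoxia response genes tested rose. What part these genes, or the endothelial, macrophage and fibroblast markers, which moved over the same ages, had in the levels of Slc2a1, Ldha, Ldhb or Hk2 was not tested.

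**Figure D2:**
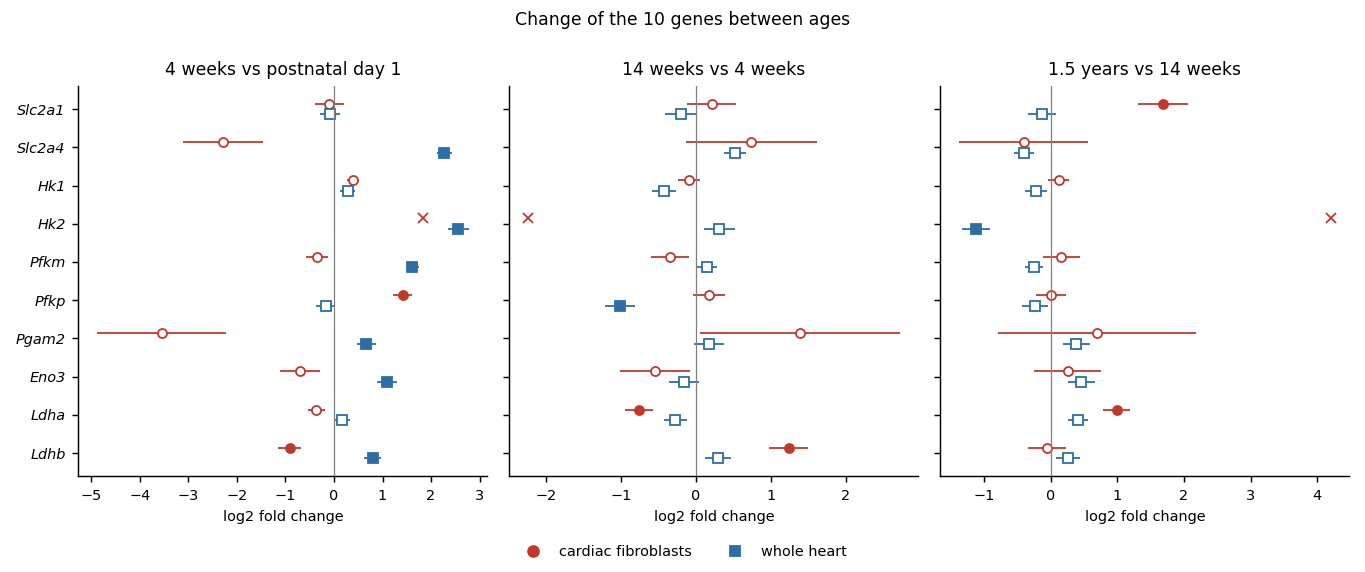
Log2 fold change with its SE of each of the 10 genes (circles, cardiac fibroblasts; squares, whole hearts) in 3 comparisons of ages, 1 a panel, filled where the adjusted p in edgeR was under 0.05; crosses give Hk2 in cardiac fibroblasts, which was not tested. Of the heart values, 6 are filled at 4 weeks against postnatal day 1 and 1 in each of the other panels.

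In whole hearts most of the set changed between postnatal day 1 and 4 weeks. Of the 10 genes 6 rose and 0 fell, where 18.2% of all genes tested passed and 12.1% rose, and the median of the 10 genes was 0.73 beside −0.09 for all genes. Slc2a4 was at 82.8, 59.6 and 76.2 CPM at postnatal day 1 and 322, 420 and 312 CPM at 4 weeks, a rise of 2.27 ± 0.16 (log2 ± SE, edgeR, adjusted p = 4.7e-08). Hk2 was at 34.9, 45.8 and 64.8 CPM and then 336, 282 and 239 CPM, a rise of 2.56 ± 0.22 (adjusted p = 4.3e-07). Pfkm was at 367, 317 and 381 CPM and then 974, 1212 and 1065 CPM, a rise of 1.61 ± 0.14 (adjusted p = 3.4e-07). The 2 ages did not overlap for any of these 3 genes. Eno3 rose by 1.08 ± 0.21 (adjusted p = 0.00119), from 589 to 800 CPM at postnatal day 1 to 1220 to 1891 CPM at 4 weeks. Ldhb rose by 0.80 ± 0.18 (adjusted p = 0.00407), from 605 to 797 CPM to 1008 to 1443 CPM. Pgam2, at 390, 319 and 394 CPM and then 466, 762 and 520 CPM, rose by 0.66 ± 0.20 (adjusted p = 0.0276). The Pgam2 call was lost without any of the postnatal day 1 hearts or without 4 week replicate 2 (adjusted p 0.0601 to 0.177), and the difference was 0.42 without the latter heart and 0.42 to 0.80 over all fits that left out 1 heart. Scaling to library size only lowered the median of all genes in this step by 0.51, and on that scale Pgam2 was at 0.16 (adjusted p = 0.571) and Ldhb at 0.29 (adjusted p = 0.203). Slc2a1, Hk1, Pfkp and Ldha had no call. The summed level of the 14 cardiomyocyte markers in hearts averaged 53215 CPM at postnatal day 1 and 99938 CPM at 4 weeks. What part these markers' cells had in the rises was not tested.

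After 4 weeks few calls were made between successive ages in hearts. Pfkp, at 112, 126 and 109 CPM at postnatal day 1 and 98.8, 108 and 101 CPM at 4 weeks, was at 54.9, 48.1 and 48.5 CPM at 14 weeks. It fell from 4 to 14 weeks by 1.02 ± 0.20 (edgeR, adjusted p = 0.0162), the only call among the 10 genes in that step (background 1.61%), and the call was lost without 4 week replicate 3 or any of the 14 week hearts (adjusted p 0.0538 to 0.0947), with differences of −1.08 to −0.98 over the fits that left out 1 heart. Between 14 weeks and 1 year 0 of 10 passed with edgeR (background 0.972%). Another 2 counts, 4 with an unadjusted p under 0.05 and 4 that passed with DESeq2, have no share of all genes beside them. Between postnatal day 1 and 1.5 years 7 of 10 passed (background 31.8%, median 1.29 beside −0.15): Slc2a4 at 2.38, Hk2 at 1.74, Pfkm at 1.50, Ldhb at 1.35, Eno3 at 1.38 and Pgam2 at 1.23 rose, and Pfkp fell by 1.43. Each of these 7 calls held in all 24 alternative fits, an offset for transcript length among them. Differences went with transcript length across 17419 genes in this comparison (Spearman's rho −0.25) and from 14 weeks to 1 year (−0.20). Between postnatal day 1 and 1.5 years the median was 0.39 for transcripts under 1953 bases and −0.58 for those of 3624 bases or more. What part this trend had in the sizes of the 7 differences was not tested. Hk1 was at 226, 252 and 195 CPM in newborn hearts, 265, 325 and 227 CPM at 4 weeks, 196, 205 and 205 CPM at 14 weeks, 119, 133 and 169 CPM at 1 year and 165, 185 and 169 CPM at 1.5 years. The hearts of 1 year and older were below all younger ones. Hk1 differed over the 5 ages (edgeR, adjusted p = 0.00176) with no call in any single comparison. Over all 5 ages 8 of 10 passed (background 34.3%), all but Slc2a1, at 12.9 to 23.3 CPM in the 15 hearts, and Ldha, at 660 to 1078 CPM.

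Hk2 in hearts went the other way from Hk2 in cardiac fibroblasts after 14 weeks. It was at 328, 343 and 393 CPM at 14 weeks, 229, 211 and 253 CPM at 1 year and 183, 180 and 124 CPM at 1.5 years, with no overlap among these ages. Its fall from 14 weeks to 1.5 years, 1.13 ± 0.21 on the log2 scale (edgeR, adjusted p = 0.00295), was the only call among the 10 genes in that comparison (background 12.8%, median of the 10 genes −0.18 beside −0.02 for all). In the same comparison the difference was tied to transcript length across all genes. Spearman's rho was −0.38 across 17419 genes, which are not independent replicates, and the median log2 difference was 0.42 for genes with transcripts of at most 1953 bases and −0.47 for those longer than 3624 bases. The Hk2 transcript has 5513 bases and the Pgam2 transcript 840. With an offset for length, an alternative chosen after the data were seen, Hk2 was at −0.55 ± 0.18 (adjusted p = 0.0898), so the call was lost. With the same offset Pgam2 moved from 0.38 to −0.05 and Ldhb from 0.26 to −0.04, whereas Eno3 moved from 0.45 to 0.25. What part library quality had in the length trend was not tested.

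**Figure D3:**
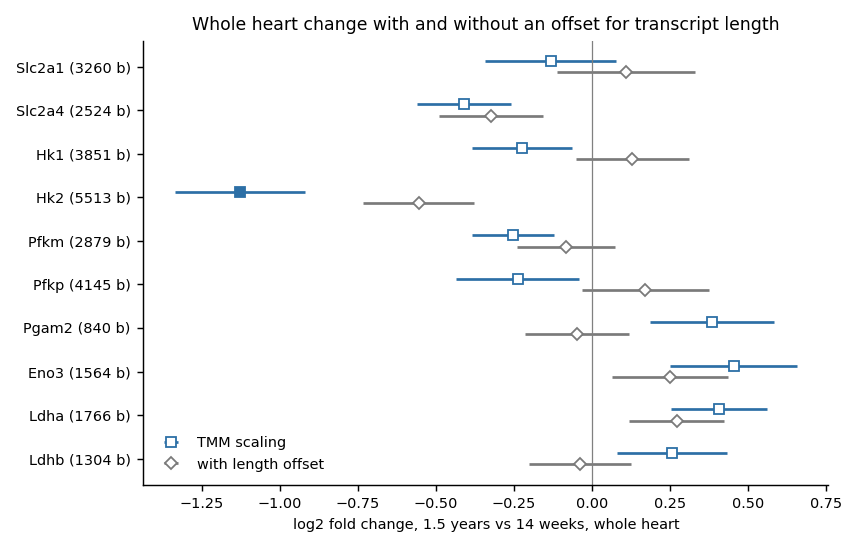
Log2 fold change with its SE from 14 weeks to 1.5 years in whole hearts for the 10 genes, with transcript lengths in bases (b), without (squares, filled where the adjusted p was under 0.05) and with (diamonds) an offset for length. The offset moves Hk2, with the longest transcript, from −1.13 to −0.55, and Pgam2, with the shortest, from 0.38 to −0.05.

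The isoform ratios in hearts, each taken within a library, differed among the 5 ages for 5 of 6 pairs. The log2 ratio of Hk2 to Hk1 counts was −2.25 ± 0.58 (SD, n = 3) at postnatal day 1, 0.81 ± 0.11 at 14 weeks and −0.11 ± 0.30 at 1.5 years (exact permutation test over ages, p = 4.42e-05, adjusted 2.43e-04). A ratio within a library does not remove the length trend where the 2 transcripts differ in length (Hk2 5513 bases, Hk1 3851). From 14 weeks to 1.5 years the length offset moved Hk2 from −1.13 to −0.55 and Hk1 from −0.22 to 0.13. What part the trend had in the ratios was not tested. The ratio of Slc2a1 to Slc2a4 went from −1.81 ± 0.25 at postnatal day 1 to −4.18 ± 0.13 at 4 weeks (exact p = 2.86e-04, adjusted 7.87e-04). The ratio of Pfkp to Pfkm went from −1.62 ± 0.25 to −3.40 ± 0.0958 and was −4.57 ± 0.16 at 14 weeks (exact p = 2.00e-04, adjusted 7.33e-04). The ratio of Eno3 to Eno1, the enolase of most other tissues, went from 1.68 ± 0.41 to 3.92 ± 0.0860 (exact p = 6.04e-04, adjusted 0.00133). The ratio of Ldha to Ldhb was 0.17 ± 0.23 at postnatal day 1 and −1.05 ± 0.0933 at 14 weeks (exact p = 1.43e-06, adjusted 1.57e-05). The ratio of Pgam2 to Pgam1 did not pass (exact permutation test, p = 0.346), with a spread of 1.70 (SD) at 1.5 years. In cardiac fibroblasts the ratios of Pgam2 to Pgam1 (exact permutation test, p = 0.0532, adjusted 0.0650) and of Eno3 to Eno1 (p = 0.0808, adjusted 0.0889) missed the threshold. Pgam1, Eno1 and Ldha have processed copies elsewhere in the genome that could take or lend reads, so their levels are uncertain. Reads could also be shared with exon-overlapping genes at Slc2a1, Hk1, Pfkm and Pfkp, since the counting strand was not stated.

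**Figure D4:**
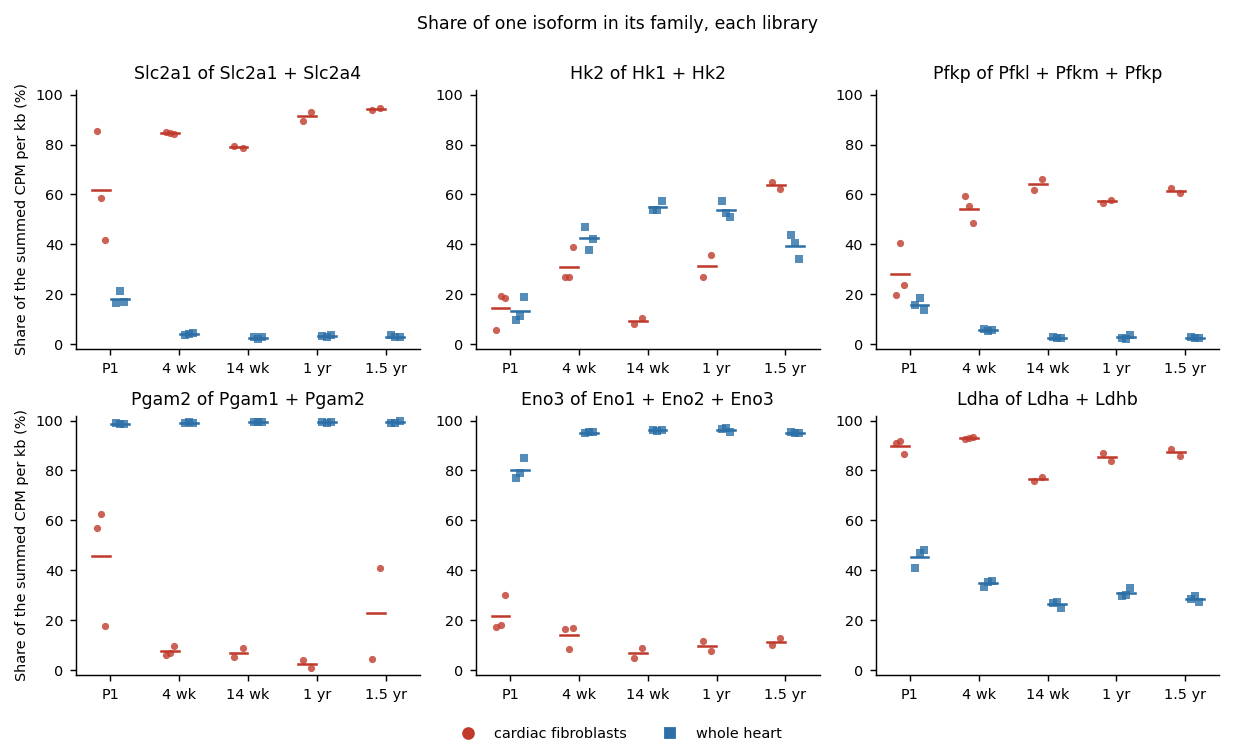
Share of 6 isoforms, in percent of the summed CPM per kilobase of the genes in the panel title, in every library by age (circles, cardiac fibroblasts; squares, whole hearts). Hk2 makes up 63.7% of Hk1 and Hk2 in cardiac fibroblasts at 1.5 years and 39.4% in hearts of that age, while Pgam2 is at 98.8% to 99.4% of its pair in hearts at every age.

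Averaged over the ages, the leading isoform differed between the tissues at each step but that of hexokinase, where Hk1 was above Hk2 per kilobase in both, at 52.5 against 39.3 CPM per kb in hearts. Single ages went the other way. Hk2 made up 55.0% of the pair in hearts at 14 weeks and 53.7% at 1 year, and 63.7% in cardiac fibroblasts at 1.5 years. Per kilobase of transcript and averaged over the 5 ages, Ldha led the 9 genes other than Hk2 in cardiac fibroblasts, at 119 CPM per kb, followed by Hk1 (29.6), Pfkp (23.7) and Ldhb (17.5), and Slc2a4 was last (1.51). The mean of Hk2 there, 18.3 CPM per kb, is carried by the 1.5 year libraries that entered the choice of the set. In hearts Ldhb led, at 962 CPM per kb, followed by Eno3 (842), Pgam2 (741), Ldha (451) and Pfkm (316), and Slc2a1 was last (5.35). In a fit of all 27 libraries, 7 of the 9 genes tested were lower in cardiac fibroblasts than in hearts on average over the ages, where 56.8% of all genes tested differed and 29.1% were lower (median of the 9 genes −4.90 beside −0.01). The log2 difference was −9.84 for Pgam2, −7.74 for Eno3, −6.82 for Slc2a4, −6.13 for Ldhb, −4.90 for Pfkm, −2.30 for Ldha and −1.15 for Hk1, with adjusted p of at most 2.49e-12 in edgeR, and each held in all 33 alternative fits. Pfkp, at 0.18 ± 0.10 (edgeR, adjusted p = 0.135), passed in 15 of the 33. Slc2a1, at −0.04 ± 0.12 (adjusted p = 0.966), had no stable sign, at 0.29 with library size only, a scaling that moved the median of all genes in this comparison by 0.29.

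The early change also differed between the tissues. For 6 of 9 genes the step from postnatal day 1 to 4 weeks differed (interaction in edgeR, background 7.14%, median −1.72 beside 0.17 for all genes). In cardiac fibroblasts relative to hearts it was lower by 4.57 for Slc2a4, by 4.23 for Pgam2, by 1.96 for Pfkm, by 1.78 for Eno3 and by 1.72 for Ldhb on the log2 scale, and it was 1.58 higher for Pfkp, with adjusted p from 2.3e-05 to 0.00478. The cardiomyocyte markers moved in the same direction, with 14 of 14 lower by the same interaction. From 4 to 14 weeks 0 of 9 passed (background 0.692%) in edgeR. Without a share of all genes to set beside them, 2 had an unadjusted p under 0.05, and 1 passed in DESeq2. The median of the 9 genes was 0.34 beside 0. Between 14 weeks and 1.5 years 1 of 9 passed (background 2.71%, median 0.27 beside 0.08): Slc2a1, whose change was 1.80 ± 0.41 higher in cardiac fibroblasts (adjusted p = 0.0168). That call was lost without either 14 week library or 1.5 year replicate 4 of the cardiac fibroblasts, or without 14 week replicate 1 or 3 of the hearts (adjusted p 0.0510 to 0.109), with differences of 1.69 to 1.91 over the fits that left out 1 library. Hk2, left out of this test, was at 287 CPM in cardiac fibroblasts and 154 CPM in hearts at 1.5 years by library size.

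A list of 68 other genes of glucose transport, glycolysis and its regulators, lactate and pyruvate, and glycogen was followed beside the 10. From postnatal day 1 to 4 weeks 1 of 60 rose and 6 fell in cardiac fibroblasts (15.5% of all genes tested were called). Aldoa, an aldolase, rose by 0.45, and Slc2a13, a proton-coupled inositol transporter, fell by 2.44. Pygl, the liver glycogen phosphorylase, fell by 1.96, and Gyg, the primer of glycogen synthesis, fell by 1.12. From 4 to 14 weeks 5 rose and 2 fell (3.87% of all genes). Pdk4, a kinase that shuts off pyruvate dehydrogenase, rose by 2.25, Pgk1 by 1.75 and Txnip, which limits glucose uptake, by 1.69. The monocarboxylate transporters Slc16a1 and Slc16a3, which carry lactate, fell by 1.23 and 1.16. From 14 weeks to 1 year 2 rose and 1 fell (1.78% of all genes): Slc16a3 by 1.76 and Bsg, the partner protein of those transporters, by 0.80 rose, and Gapdh fell by 0.75. By 1.5 years, against 14 weeks, 1 rose and 2 fell (2.72% of all genes): Bsg rose by 0.60, Pgk1 fell by 1.68 and Txnip by 0.96. Pgk1 and Gapdh have processed copies, so their values are uncertain.

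In hearts the same list held 61 tested genes, of which 21 rose and 8 fell from postnatal day 1 to 4 weeks (18.2% of all genes tested were called). Ldhd, a D-lactate dehydrogenase, rose by 4.14, Phkg1, a phosphorylase kinase subunit of muscle, by 3.88 and Pdp2, a pyruvate dehydrogenase phosphatase, by 2.11. Aldoc fell from 11.6 ± 2.15 to 0.152 ± 0.203 CPM, Pygl by 2.94 and Pdk3 by 2.73. From 4 to 14 weeks 4 rose and 1 fell (1.61% of all genes), among them Pfkfb1 by 2.45 and Pdk1 by 1.06. In the step to 1 year Pfkfb1, a regulator of phosphofructokinase, rose by 1.65 and Slc16a1 fell by 0.67, the 2 calls in that step (0.972% of all genes). By 1.5 years, against 14 weeks, 3 rose and 12 fell (12.8% of all genes). Eno1 rose by 0.81 and the mitochondrial pyruvate carriers Mpc2 and Mpc1 by 0.67 and 0.55, whereas Pfkfb2 fell by 1.32 and Pdk4 by 1.21. The length trend described for Hk2 touches this comparison too. The genes closest to Pgam2 over the 15 hearts and 8484 genes were Yif1a (Pearson r = 0.980), Endog (0.979), Spr (0.976), Mrps7 (0.975) and Ndufs3 (0.974), a description without a test. Of the set Ldhb ranked 53 (0.959) and Eno3 ranked 96 (0.949). Each of the named neighbors had a higher mean at 1.5 years than at 14 weeks, as with Yif1a (114 and 68.5 CPM). What part the length trend between these ages had in the correlations was not tested.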

How the data were processed

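RNA-Seq reads (single end, 65 bases) had been mapped by the authors to mm10 with STAR 2.5.3a, and the deposited values are raw counts per gene, whole numbers without normalization, for 12 cardiac fibroblast and 15 whole heart libraries. The study's methods state 3 fibroblast sets per age, whereas the labels give 2 from 14 weeks on. Which strand was counted is not given in the sources used here. Groups are the tissue and age of the labels.

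The members and gene lists were chosen with earlier results of these data known. Counts were filtered with filterByExpr, scaled by TMM and fitted per tissue with age as the only factor in edgeR 4.0.16 (R 4.3.3), with the quasi-likelihood F test and Benjamini-Hochberg adjustment over 18759 genes in cardiac fibroblasts, 17995 in whole hearts and 20650 in the joint fit. Genes with an adjusted p under 0.05 were called. The fit was tested on simulated counts. Log2 CPM used a prior count of 2. Ratios of isoforms had 0.5 counts added, and their 11 exact permutation tests over all assignments of libraries to ages (138600 and 1401400) were two-sided and adjusted together. Named pathway genes are the 3 highest and 3 lowest called log2 changes where 1 of the ages averaged 10 CPM or more; some genes that meet this rule are not reported here. Coordinates and lengths (1 principal transcript a gene) came from GENCODE M21 on GRCm38, where 95.4% of symbols were found, and promoters from RefSeq, trimmed at annotated exons.

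Alternatives were DESeq2 1.42.0, other scalings and filters, only the ages compared, a replicate block, leaving out each library, and, added after the data were seen, a library size without mitochondrial genes and an offset for length. Other tools were python 3.11.15, numpy 2.4.6, pandas 2.3.3, scipy 1.17.1 and matplotlib 3.10.9.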

Additional observations from a re-analysis of the deposited data

Results flagged for a closer look

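For the step between postnatal day 1 and 4 weeks, cardiac fibroblasts and whole hearts differed by the interaction test in 6 of the 9 genes tested. Of all genes tested, 7.14% differed. In cardiac fibroblasts minus hearts the log2 difference was −4.57 for Slc2a4, −4.23 for Pgam2, −1.96 for Pfkm, −1.78 for Eno3, −1.72 for Ldhb and 1.58 for Pfkp. From 14 weeks to 1.5 years, where 2.71% of all genes tested differed, the change of Slc2a1 differed by 1.80. All 14 cardiomyocyte markers had a negative early difference by the same test, and their part in the values of the 10 genes was not tested.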

How the results depend on the processing

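Counts of called genes moved with the setting as follows. The share of all genes called under each setting is not given beside them. Nor is it given beside the counts for fits that left out 1 library, in the next paragraph. All these counts describe the setting and are not a result about these genes. With DESeq2, cardiac fibroblasts had 5 called genes from postnatal day 1 to 4 weeks (2 with edgeR) and 1 from 14 weeks to 1 year (0), hearts had 2 from 4 to 14 weeks (1), 4 from 14 weeks to 1 year (0) and 3 from 14 weeks to 1.5 years (1), and 1 gene passed the interaction from 4 to 14 weeks (0). With only the 2 ages compared, cardiac fibroblasts had 1, 1 and 2 in the first 3 steps, and hearts had 4 from 14 weeks to 1 year. With at least 10 counts in every sample, there was 1 from 14 weeks to 1 year in cardiac fibroblasts and 2 from 14 weeks to 1.5 years in hearts. With library size only, hearts had 2 from 14 weeks to 1.5 years, and the interactions gave 2 from 4 to 14 weeks and 0 from 14 weeks to 1.5 years. Without mitochondrial genes in the library size, there was 1 from 4 to 14 weeks in cardiac fibroblasts and 2 from 14 weeks to 1.5 years in hearts, and with the offset for length 0 in the latter. The mean tissue difference of Slc2a1 (−0.04) was 0.29 with library size only, 0.052 without a filter and −0.12 to 0.082 in the leave-one-out fits, positive in those from 0.0017. Library size only moved the median of all genes between postnatal day 1 and 1.5 years in hearts by −0.60. The cause of these moves was not tested.

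When single libraries were left out, cardiac fibroblasts had 1 to 4, 0 to 2, 0 to 1, 0 to 2, 2 to 4 and 3 to 5 called genes (4 weeks against postnatal day 1, 14 against 4 weeks, 1 year and 1.5 years against 14 weeks, 1.5 years against postnatal day 1, any age), and hearts 5 to 6, 0 to 2, 0 to 0, 1 to 3, 7 to 8 and 8 to 8. The tissue difference had 7 to 8 and the interactions 6 to 6, 0 to 1 and 0 to 1. Ratios passed in 1 to 4 cases in cardiac fibroblasts and 5 to 6 in hearts.

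No pairing by replicate number was seen. The correlation of deviations for equal numbers ran from −0.0316 to 0.0356 within cardiac fibroblasts and from −0.0619 to 0.102 within hearts. There 4 of 11 and 4 of 15 libraries matched best with their own number. Between cardiac fibroblasts and hearts of the same age it ran from −0.0417 to 0.0225, and 3 of 12 libraries matched best with their own number. Deviations within such small groups cannot exclude a pairing. The study states that the sorted cells came from the sequenced hearts. The main joint fit took all libraries as independent. With the replicate block, Slc2a1 was at 1.65 and Ldha at 1.01 from 14 weeks to 1.5 years in cardiac fibroblasts. Replicate number 6 occurs only in a 14 week library, so the block set that library aside. The age of 14 weeks then rested on the other library alone, and calls from that fit do not measure an effect of replicate. Of the single gene and isoform ratio results under all alternatives, 1678 were unchanged, 73 lost and 38 gained a call, and 15 turned sign. Unchanged meant the same side of the threshold and, where a difference has a direction, the same direction. For Hk2 in cardiac fibroblasts, which was not tested, it meant the same sign and a log2 difference within 0.603 of the main fit. With 2 libraries per later age, the spread in cardiac fibroblasts limits what could be called.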
